A study of Hordeum vulgare with 18 samples.

Results

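D1007_04718 is 1 of 68630 loci in a table of read counts from highland barley, a hulless crop form of Hordeum vulgare, and its description in the table is non-symbiotic hemoglobin. The locus lies on scaffold SDOW01000036.1 of a barley assembly, from base 3536584 to base 3537146 on the minus strand, and its exons span 477 bases. Its best Swiss-Prot match is the barley non-symbiotic hemoglobin of gene HB, and it carries the Pfam globin domain. The locus was picked by name because its levels in these 18 libraries were already known to differ. Its levels and changes are therefore given as a description with no test, and the tests concern other genes.

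Plants grew in pots of 3.5 kg of soil, and organic fertilizer took the place of 0, 40 or 100% of the chemical nitrogen while the totals of N, P and K were held equal. The 0% pots were given urea (357 mg), superphosphate (1545 mg) and potassium sulfate (140 mg) with no organic fertilizer. The 40% pots had less urea (215 mg), superphosphate (1443 mg) and potassium sulfate (122 mg), and 1117 mg of organic fertilizer. The 100% pots had no urea, 2793 mg of organic fertilizer, 96 mg of potassium sulfate and 1289 mg of superphosphate. Leaf and root, which the design text calls the parts above and below ground, were sampled at flowering, and each of the 6 groups held 3 libraries. The labels do not say whether libraries within a group are from different pots or plants, so the p-values below measure only the spread between these libraries.

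Plant non-symbiotic hemoglobins, or phytoglobins, are small heme proteins that are found also in plants that form no root nodules. They bind oxygen very tightly and, in their oxygenated form, convert nitric oxide to nitrate, and monodehydroascorbate reductase can return the oxidized heme to its working state. Nitric oxide is made in roots partly from nitrite, the product of nitrate reductase and the substrate of nitrite reductase. In barley, maize and Arabidopsis, genes of this class are known to be induced by nitrate and by low oxygen. For this reason the hemoglobin is set beside the genes of nitrate uptake and assimilation and beside those of the low-oxygen response.

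Libraries held 16.5 to 19 M counts in leaf and 13 to 16.9 M in root. Levels are counts per 1e6 counts of the library (CPM), and a count of 3, used as the floor of detection, equalled 0.158 to 0.231 CPM. The leaf labels were checked with 42 loci of Rubisco small subunit, chlorophyll a-b binding and photosystem I proteins, whose summed level was 59100 to 140000 CPM in leaf and 8.99 to 16.7 CPM in root. The list of root markers did not separate the organs. Its 24 loci of Casparian strip and nicotianamine proteins summed to 545 to 698 CPM in root and 669 to 2850 CPM in leaf. Within it Casparian strip membrane protein 1 D1007_45729 had 220 counts over the root libraries and 0 over the leaf libraries, whereas protein 2 D1007_59456 had 28 and 2997. In bulk tissue, fewer cells of a type and less RNA per cell cannot be told apart.

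In roots the level of D1007_04718 was lowest at 40% organic nitrogen and highest at 100%. Root replicates 1, 2 and 3 held 2.52, 4.21 and 10.1 CPM at 0%. At 40% they held 0.0655, 1.03 and 2.39 CPM, the first of these being a single count. At 100% they held 130, 32.6 and 107 CPM. The 3 groups did not overlap, although the highest library at 40% lay just under the lowest at 0%. The means were 5.60 ± 3.97, 1.16 ± 1.17 and 90.0 ± 51.1 CPM at 0, 40 and 100% (SD, n = 3 each).

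The mean at 100% was 16.1 times that at 0%, and between 12.4 and 26.7 times with any 1 of the 6 libraries left out. The fitted log2 change was 3.92 ± 0.78 (SE). The mean at 0% was 4.82 times that at 40%, a log2 change of -2.37 ± 0.88 from 0% to 40%. Without 40% root 3 that ratio was 10.2, and without 0% root 3 it was 2.90. From 40% to 100% the mean differed 77.5-fold, with a log2 change of 6.29 ± 0.92, and 164-fold without 40% root 3. Among all 21895 genes tested in root, 10.2% were called at 100% against 0%, 0.306% at 40% against 0% and 4.59% at 100% against 40%. These shares are given as background, since the locus was chosen on these contrasts and nothing is read from them about it.

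The spread within the 100% roots was wider than counting error. The exact Poisson interval of 95% was 29.7 to 35.6 CPM for 100% root 2 and 102 to 112 CPM for 100% root 3, from 475 and 1723 counts. At 40% the count was the limit, with an interval of 0.00166 to 0.365 CPM in root 1. That library lay below the floor of 3 counts, so ratios that rest on it carry little precision.

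In leaves the levels were low and less ordered. The 0% leaves held 3.68, 0.855 and 1.87 CPM, a mean of 2.13 ± 1.43. The 40% leaves held 1.94, 0.316 and 12.3 CPM, a mean of 4.84 ± 6.47 that rested on leaf 3. The 100% leaves held 7.07, 4.40 and 10.7 CPM, a mean of 7.40 ± 3.18 (SD, n = 3 each). The 100% leaves all lay above the 0% leaves, while the 40% leaves spanned both groups.

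The leaf mean at 100% was 3.47 times that at 0%, and between 2.67 and 5.42 times with 1 library left out. The fitted log2 change was 2.05 ± 1.04. From 0% to 40% the log2 change was 1.15 ± 1.02, and it turned to -0.97 without 40% leaf 3, so that no direction can be given. From 40% to 100% it was 0.90 ± 1.01, and 3.01 without 40% leaf 3. In leaf 22.9% of 20032 genes tested were called at 100% against 0%, 0.00998% at 40% against 0% and 18.6% at 100% against 40%, again given only as background. Scaling by library size alone moved the median log2 change of all leaf genes at 100% against 0% from -0.075 to -0.325, and the change of the hemoglobin to 1.79. With that scaling 37.2% of the leaf calls at 100% against 0% were higher, compared with 56.5%, and at 100% against 40% the shares were 36.9 and 59.6%.

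Ordered by mean level, the groups ran from the 40% roots through the 0% leaves, the 40% leaves, the 0% roots and the 100% leaves to the 100% roots. Each of the first 4 groups overlapped the next in its single libraries, and only the step from the 100% leaves to the 100% roots showed no overlap. At 100% the root mean was 12.2 times the leaf mean, with a log2 difference of 3.03 ± 1.01. At 0% the difference was 1.2 ± 1.00 and at 40% it was -2.30 ± 1.09, and in both the organs overlapped. The difference at 0% was 0.38 without 0% root 3. The difference at 40% was -0.19 without 40% leaf 3 and -3.34 without 40% root 3. The response of root minus that of leaf was -3.50 ± 1.48 for 40% against 0% and 1.83 ± 1.38 for 100% against 0%. It was 5.33 ± 1.47 for 100% against 40%.

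**Figure D1:**
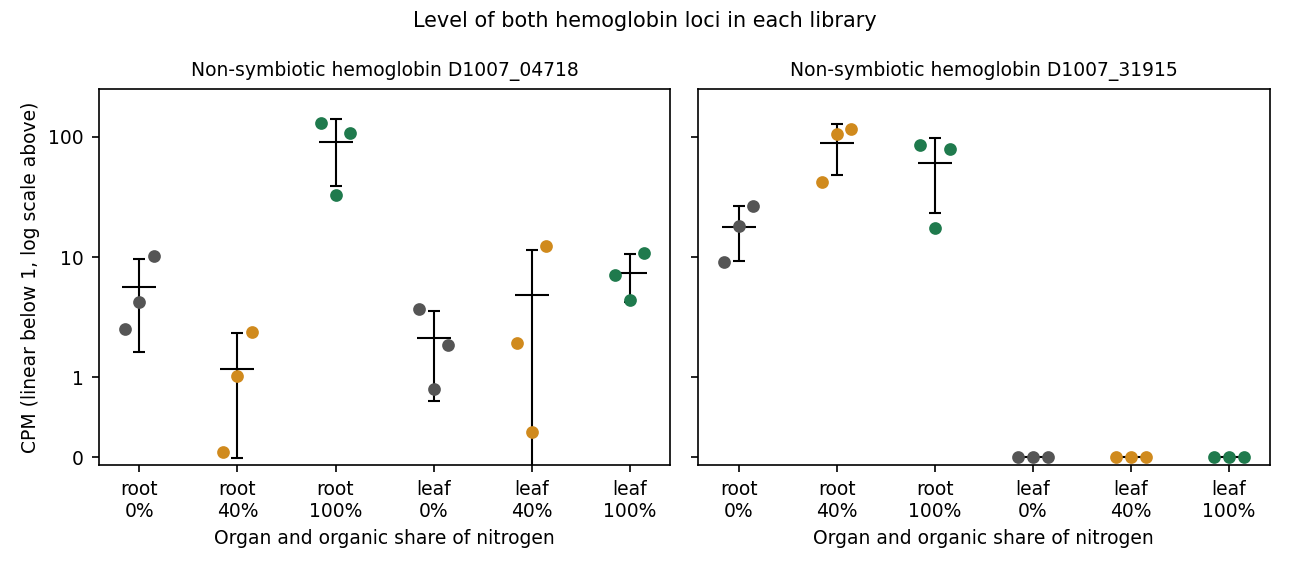
CPM of D1007_04718 (left) and D1007_31915 (right) in each of the 18 libraries, by organ and organic share of nitrogen, on an axis that is linear below 1 and logarithmic above. Points are libraries in the order of replicates 1 to 3, and the bar and whiskers are the mean and SD of 3 libraries, the lower whisker of the 40% leaves running below 0. The 100% roots of D1007_04718 (32.6 to 130 CPM) lie above all other groups, and D1007_31915 is at 0 in all 9 leaf libraries.

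Only 1 other locus of the table was annotated as a globin. D1007_31915 lies on SDOW01000355.1 from base 749425 to base 750231 on the plus strand, is 489 bases long and has the same best Swiss-Prot match. It had no count in any of the 9 leaf libraries, where D1007_04718 had 6 to 205 counts. In the 0% roots it held 9.06, 18.1 and 26.4 CPM. In the 40% roots it held 42.2, 106 and 116 CPM, all above the 0% roots. In the 100% roots it held 85.7, 17.6 and 79.1 CPM, with replicate 2 among the 0% roots. Against the leaf floor of 3 counts per library, its root level was at least 109-fold higher at 0%, 509-fold at 40% and 354-fold at 100%.

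D1007_31915 did not pass the test in any root comparison. Its mean was 17.8 ± 8.67, 88.0 ± 40.1 and 60.8 ± 37.5 CPM at 0, 40 and 100% (SD, n = 3 each). The log2 change was 2.25 ± 0.63 at 40% against 0% (edgeR adjusted p = 0.144) and 1.69 ± 0.62 at 100% against 0% (edgeR adjusted p = 0.11). At 100% against 40% it was -0.56 ± 0.60 (edgeR adjusted p = 0.637). Over the alternatives the adjusted p ran from 0.0438, with DESeq2, to 0.423 for 40% and from 0.0359, without 100% root 2, to 0.275 for 100%. Over the 9 root libraries its log2 CPM correlated with that of D1007_04718 at a Pearson r of 0.092, against a median of -0.008 for all genes compared.

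Within a library the balance of both loci does not depend on scaling, and within the 0% and the 100% roots it was more even than the levels were. D1007_04718 gave 21.7, 18.9 and 27.6% of the hemoglobin counts in the 0% roots. It gave 0.155, 0.965 and 2.01% in the 40% roots. In the 100% roots it gave 60.3, 64.9 and 57.5%. The groups did not overlap, and the exact binomial intervals of 95% at 100% ran from 55.7 to 68.4% over the 3 libraries. The summed level of both loci was 11.6 to 36.5 CPM in the 0% roots, 42.3 to 119 in the 40% roots and 50.2 to 216 in the 100% roots. Per kilobase of exon, D1007_04718 averaged 189 CPM and D1007_31915 averaged 124 CPM at 100%. At 40% these averages were 2.43 and 180. The rule for reads that match both loci is not stated in the labels or headers.

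**Figure D2:**
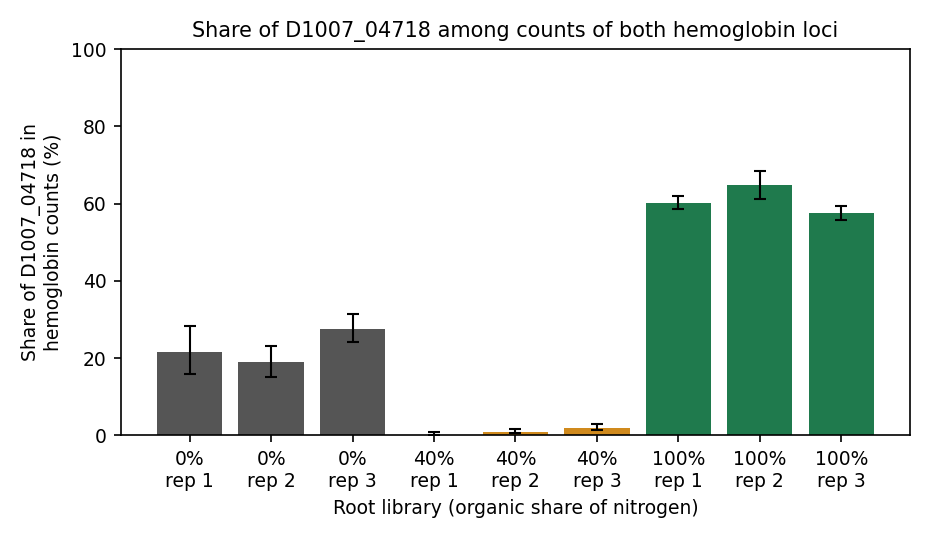
Share of D1007_04718 in the counts of both hemoglobin loci (percent) for each of the 9 root libraries, with exact binomial intervals of 95%, which cover counting error only. Bars stand at 18.9 to 27.6% at 0%, 0.155 to 2.01% at 40% and 57.5 to 64.9% at 100%.

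The next loci with a count on the scaffold were gamma-glutamyl hydrolase 1 D1007_04717, 81449 bases away, and a receptor-like kinase locus assembled from the reads, 1494 bases away. The second had 27 counts in all 18 libraries and was not tested.

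The genes of nitrate uptake and assimilation were examined next to the hemoglobin, from 6 lists that hold 112 loci, of which 64 had a count and 59 passed the filter on low counts in root. At 100% against 0% in root, 16 of the 59 were called higher and 0 lower, with a median log2 change of 0.44 against -0.005 for all genes. The 16 make up 27.1% of the list, next to 4.69% of all genes called higher and 5.54% called lower. At an unadjusted p below 0.05, 22 were higher and 4 lower, where 6166 of all 21895 genes had such a p in either direction. DESeq2 called 19 of the 59 higher and 1 lower, and 3834 of all genes. The edgeR count was 8 without 0% root 1, 5 without 0% root 2, 7 without 0% root 3, 8 without 100% root 1, 7 without 100% root 3 and 19 without 100% root 2. At 40% against 0% none of the 59 was called by edgeR, while 11 had an unadjusted p below 0.05 (3 higher, 8 lower) and DESeq2 called 1 higher and 4 lower. Of all 21895 genes, 3295 had an unadjusted p below 0.05 in that comparison, and DESeq2 called 1155. At 100% against 40%, 16 were called higher and 0 lower, next to 2.4% of all genes called higher. The count was 10 without 40% root 1, 9 without 40% root 2 and 10 without 100% root 3, while DESeq2 called 20 higher. The comparisons with 0% share the same control libraries, as those with 100% share theirs. These lists were chosen with earlier results of these libraries known and are not independent evidence of a direction.

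For nitrate uptake, 5 of 12 tested high-affinity carriers (NRT2) and partner proteins (NAR2) rose at 100%. For this and the following nitrate lists, the background is the 4.69% of all root genes called higher at 100% against 0%. NRT2.4 D1007_49225, a high-affinity nitrate carrier, held 2.20, 2.19 and 2.42 CPM at 0% and 87.4, 26.9 and 74.0 CPM at 100%. Its log2 change was 4.74 ± 0.52 (edgeR adjusted p = 0.00155). At 40% it held 5.90, 1.92 and 3.24 CPM, which overlapped the 0% roots. An NRT2.1 locus assembled from the reads (SDOW01001366.1, bases 141171 to 143912) changed by 3.16 ± 0.44 (edgeR adjusted p = 0.00432), and like D1007_31915 it had no count in leaf. The NRT2.1 locus D1007_62268 was also called (1.99 ± 0.55, edgeR adjusted p = 0.0497). The NRT2.1 loci D1007_60392, D1007_60399, D1007_60400, D1007_60402 and D1007_62269 were not, with log2 changes of -1.105 to 1.034. NAR2.1 D1007_31256, which the NRT2 carriers need to work, changed by 1.92 ± 0.38 (edgeR adjusted p = 0.0155). The NAR2.2 locus D1007_44400 was called as well, at 67.7 ± 5.29 CPM at 0% and 276 ± 146 at 100% (2.00 ± 0.37, edgeR adjusted p = 0.0124). The most abundant member, the other NAR2.2 locus D1007_44398, was at 472 ± 9.31 and 660 ± 232 CPM and did not pass (0.44 ± 0.33, edgeR adjusted p = 0.41).

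Of the large NRT1/PTR family, only loci named NPF6.3, NPF6.4, NPF7.2 or NPF7.3 were listed, and 3 of the 8 tested rose at 100%. NPF6.3 D1007_25456, whose Arabidopsis counterpart is the dual-affinity nitrate carrier and sensor, held 18.9, 22.1 and 17.3 CPM at 0%, 24.7, 23.5 and 44.9 at 40% and 142, 96.0 and 135 at 100%. Its log2 change at 100% was 2.63 ± 0.26 (edgeR adjusted p = 0.00106). NPF7.3 D1007_00549, known in Arabidopsis for loading nitrate into the xylem, held 24.5, 22.9 and 24.2 CPM at 0% and 109, 174 and 82.3 at 40%. That change of 2.33 ± 0.40 missed the threshold (edgeR adjusted p = 0.0522, range over alternatives 1.8e-06 to 0.278). At 100% it changed by 1.42 ± 0.39 (edgeR adjusted p = 0.049). Unlike the hemoglobin, D1007_25456 and D1007_00549 had higher means at 40% than at 0%. The NPF6.3 loci D1007_28195, D1007_28194 and D1007_61579 went the other way at 40%, with log2 changes of -1.10, -0.84 and -3.89. At 100% they changed by -0.70, 1.69 and -2.35. The NPF7.3 locus D1007_03631 changed by 0.633 at 40% and 0.465 at 100%. None of these further loci was called.

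For nitrate reduction, 2 of 3 tested enzymes rose. Nitrate reductase D1007_08787, which makes nitrite from nitrate, held 181, 134 and 174 CPM at 0%, 185, 248 and 147 at 40% and 784, 609 and 609 at 100%. Its log2 change at 100% was 1.99 ± 0.24 (edgeR adjusted p = 0.00257), and the 40% and 0% roots overlapped. Ferredoxin-nitrite reductase D1007_08673, which reduces nitrite to ammonium in plastids, lies on SDOW01000066.1 between bases 3678579 and 3681627, on the minus strand. It held 91.2, 119 and 179 CPM at 0%, 30.7, 43.7 and 68.1 at 40% and 971, 240 and 699 at 100%. As for the hemoglobin, its 3 root groups did not overlap and the 40% roots were lowest, an order that 7 of the 59 tested nitrate genes (11.9%) and 90 of all 21895 genes (0.411%) showed. Of these 7, 6 are among the 16 called higher at 100% against 0%, a comparison that the order itself includes. The other 6 were NAR2.1 D1007_31256, the assembled NRT2.1 locus, root ferredoxin-NADP reductase D1007_28258, D1007_17542, D1007_53899 and, outside the naming rule and picked for this order, glutamine synthetase D1007_39205. The log2 change was 2.23 ± 0.51 at 100% (edgeR adjusted p = 0.0268) and -1.50 ± 0.50 at 40% (edgeR adjusted p = 0.2, range over alternatives 0.0366 to 0.432).

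Of the 9 tested genes that supply reductant and siroheme, the cofactor of nitrite reductase, 3 rose at 100%. Root ferredoxin-NADP reductase D1007_28258, which feeds electrons to ferredoxin in plastids that lack light, was at 114 ± 18 CPM at 0%, 81.3 ± 12.7 at 40% and 463 ± 206 at 100% (log2 change at 100% 1.98 ± 0.34, edgeR adjusted p = 0.00918). Plastid glucose-6-phosphate dehydrogenase 2 D1007_17542 and 6-phosphogluconate dehydrogenase 2 D1007_53899, both of the oxidative pentose phosphate pathway, changed by 1.55 ± 0.37 and 1.73 ± 0.45. The more abundant 6-phosphogluconate dehydrogenase 1 D1007_21843 was at 659 ± 141 and 621 ± 8.34 CPM and did not pass.

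For ammonium assimilation 3 of 9 rose at 100%. These were NADH glutamate synthase D1007_59671 with 2.15 ± 0.57, the chloroplast glutamine synthetase D1007_32310 with 1.75 ± 0.42 and the cytosolic glutamine synthetase D1007_33459 with 1.55 ± 0.42. At 100% against 0%, 6166 of all 21895 genes had an unadjusted p below 0.05, as did 6 of the 18 tested nitrate signalling regulators. None of the 18 regulators was called by edgeR in that comparison, and DESeq2 called 1. At 100% against 40% in root edgeR called 1 higher (5.56%, next to 2.4% of all genes) and DESeq2 called 2 higher. That edgeR call was lost in 5 of the 6 fits with a library left out. In leaf edgeR called 2 of 18 higher and 2 lower at 100% against 0%, next to 13 and 9.98% of all genes. The kinase CIPK23 D1007_43985, the most abundant regulator in root, stood there at 365 ± 22.2, 369 ± 26.7 and 377 ± 40.3 CPM over the 3 rates.

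Of the 16 calls at 100% against 0%, 5 held whichever of the 6 libraries was left out. They were NRT2.4 D1007_49225, the assembled NRT2.1 locus, NPF6.3 D1007_25456, nitrate reductase D1007_08787 and root ferredoxin-NADP reductase. Leaving out 0% root 2 ended the other 11 (adjusted p 0.0596 to 0.16). Leaving out 0% root 1 ended 8 (0.061 to 0.135) and 0% root 3 ended 9 (0.0559 to 0.133). Leaving out 100% root 1 ended 9 (0.0651 to 0.143), 100% root 3 ended 9 (0.0513 to 0.142) and 100% root 2 ended 1 (0.0722). The call of nitrite reductase was among those lost without 0% root 1 or 2 or 100% root 1 or 3. All 16 log2 changes remained above 0 in these 6 fits.

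**Figure D3:**
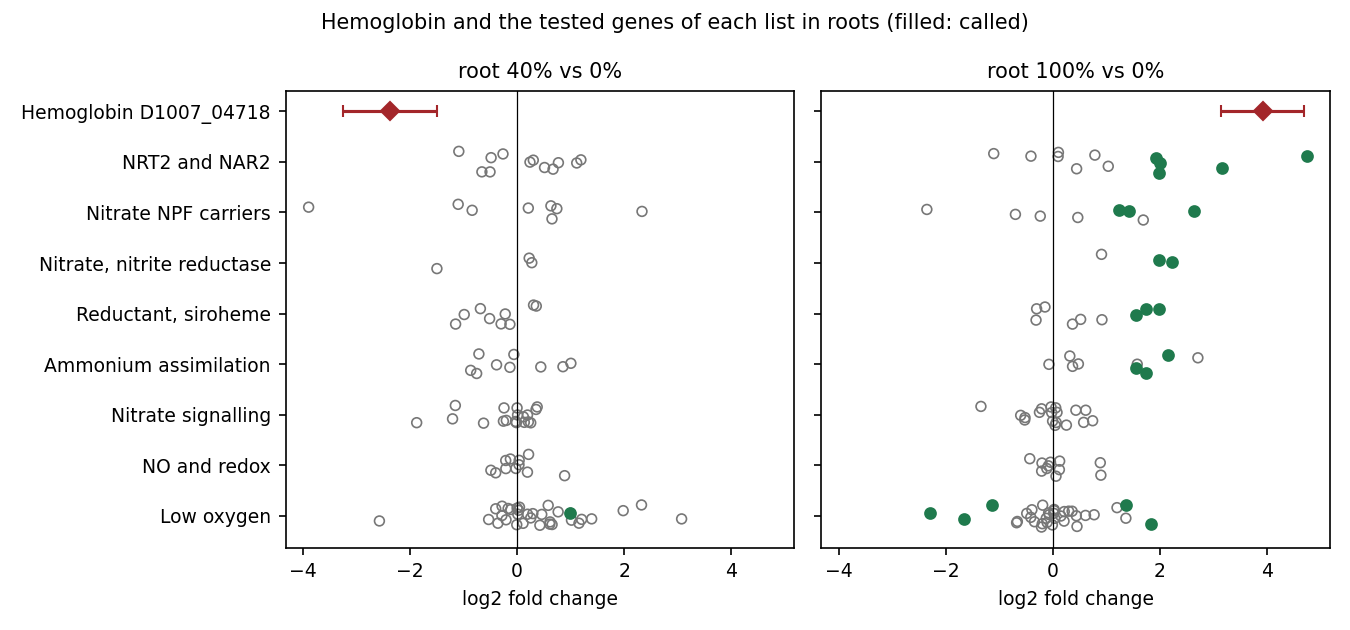
Log2 fold changes in root at 40% against 0% (left) and 100% against 0% (right) for D1007_04718 (diamond, ± SE, not tested) and for each tested gene of 8 lists. Filled points were called by edgeR at an adjusted p below 0.05. At 100% the 16 called nitrate genes all lie right of 0, at 40% none of the nitrate genes is filled, and the hemoglobin lies at -2.37 and 3.92.

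The 100% root libraries differed among themselves in the same order for the hemoglobin and most of these genes. D1007_04718 was lowest in 100% root 2 and highest in 100% root 1. Of the 16 nitrate genes called higher, 14 were also lowest in root 2 and 15 highest in root 1. Among all 1027 genes called higher at 100% these shares were 56.2 and 36.0%. At 40% against 0%, 10 of these 16 genes had a negative log2 change and 6 a positive one. Over all 59 tested nitrate genes the split was near even, with 31 negative and 28 positive.

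**Figure D4:**
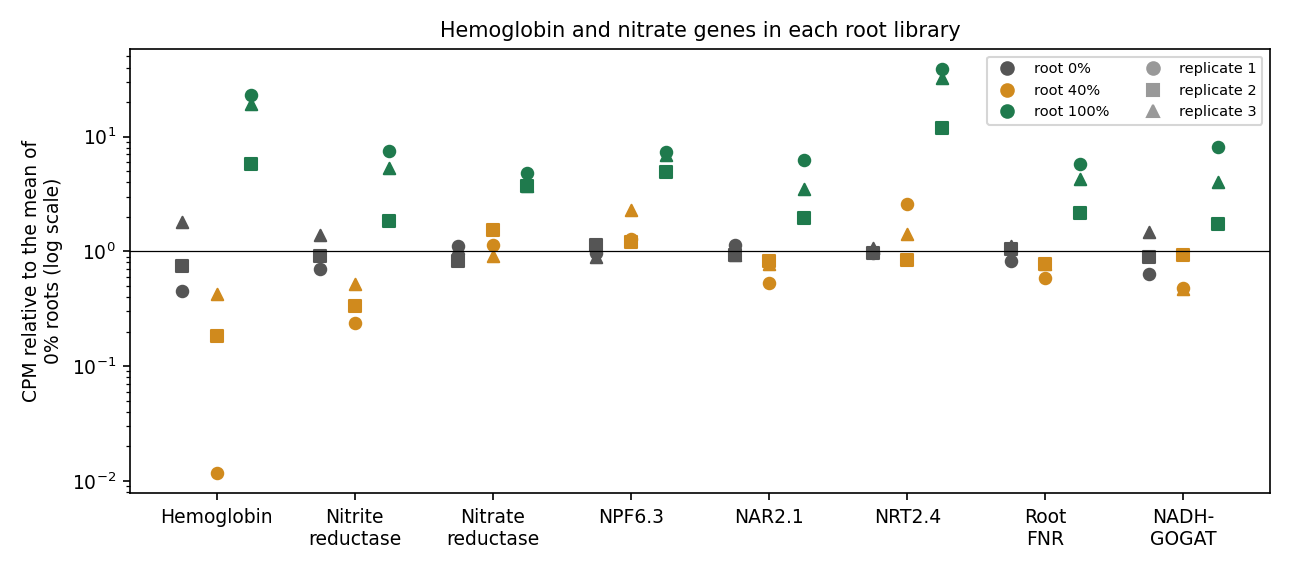
CPM of the hemoglobin D1007_04718 and of 7 nitrate genes in each root library, relative to the mean of the 0% roots of the same gene, on a log axis. Colours give the organic share of nitrogen and symbols the replicate. In the 100% roots the square of replicate 2 is the lowest or shares the lowest place for each of the 8 genes. The 40% roots all lie below 1 for the hemoglobin and nitrite reductase, and also for NAR2.1, root ferredoxin-NADP reductase and NADH glutamate synthase.

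A comparison across genes asked which patterns were most like that of D1007_04718 over the 9 root libraries. The measure was the Pearson correlation of log2 CPM among 12246 annotated genes with a mean of at least 5 CPM. The libraries share group, depth and scaling, so these values are a description with no p. Ferredoxin-nitrite reductase D1007_08673 ranked first with r = 0.979, and the order of the 9 libraries was identical for both genes (Spearman rho = 1). Not every step of that order exceeded counting error. For the hemoglobin, the Poisson intervals of 40% root 3 (1.62 to 3.39 CPM) and 0% root 1 (1.8 to 3.43 CPM) overlapped. Nitrite reductase also ranked first by rho and when levels were scaled by library size alone. Without 100% roots 1 and 3, the libraries farthest from the median, r was 0.97. The deviations from the group means correlated at 0.866 over the 9 libraries. Both values still include 40% root 1, with its single hemoglobin count. A step of 1 in the log2 level of the hemoglobin went with a step of 0.536 in that of nitrite reductase. The count ratio of nitrite reductase to hemoglobin was 6.54 to 7.45 in the 100% roots, 17.7 to 36.2 in the 0% roots and 28.5 to 468 in the 40% roots. In the 9 leaf libraries r between both genes was 0.568 and the deviations correlated at 0.064.

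**Figure D5:**
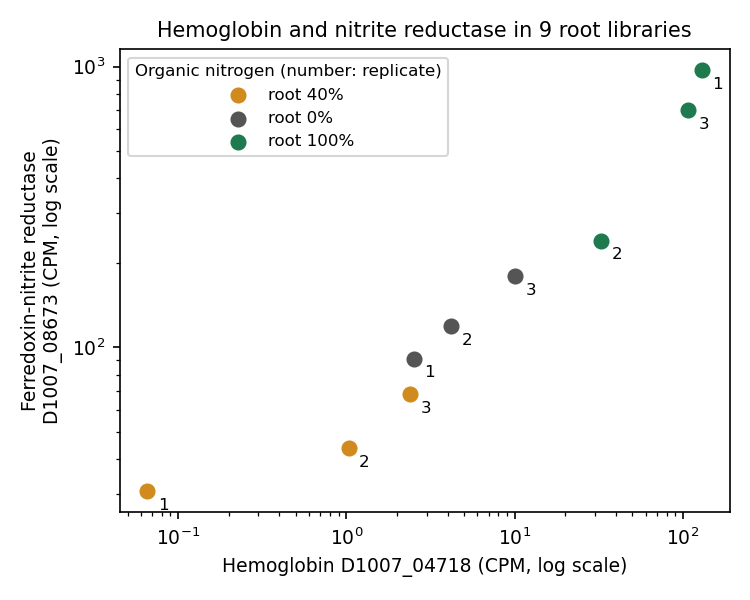
CPM of ferredoxin-nitrite reductase D1007_08673 against CPM of the hemoglobin D1007_04718 in the 9 root libraries, both axes logarithmic, numbers giving the replicate and colours the organic share of nitrogen. The libraries rise in the same order on both axes, from 40% root 1 (0.0655 and 30.7 CPM) to 100% root 1 (130 and 971 CPM).

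The genes that followed in root were the probable N-acetyltransferase HLS1 D1007_59348 (r = 0.972), the RNA polymerase II phosphatase CPL1 D1007_12605 (0.971) and the RNA helicase RH57 D1007_04925 (0.968). After them came the mechanosensitive channel MSL10 D1007_10370 and an assembled locus of the splicing factor PRP39 (SDOW01001322.1, bases 76151 to 83780), both at 0.951. HLS1, named for apical hook formation in Arabidopsis, held 6.67, 4.68 and 5.68 CPM at 0%, 0.721, 1.92 and 6.48 at 40% and 60.1, 17.3 and 47.5 at 100%. The range of the PRP39 locus was narrow, from 62.0 to 95.3 CPM over all root libraries. The lowest correlations were those of the calcium-binding protein CML14 D1007_23461 (-0.967), the pathogenesis-related protein PRB1-2 D1007_09777 (-0.966) and an assembled locus of calcineurin B-like protein 10 (-0.958).

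Over all 18 libraries the best matches were weaker. They were the PRP39 locus (r = 0.865), protein Aatf D1007_44548 (0.811), the histone methyltransferase TRX1 D1007_07275 (0.81), an assembled locus of RNA polymerase II subunit 1 (0.789), the protein CAND2 D1007_05323 (0.787) and mitochondrial HSP70-10 D1007_32570 (0.772). Nitrite reductase stood at 0.733. In the 9 leaf libraries the first were the PRP39 locus (0.923), a Sin3-like protein D1007_25179 (0.901) and an SPX membrane protein D1007_25505 (0.901). With levels scaled by library size alone, r of the PRP39 locus was 0.638 over 18 libraries and 0.585 in leaf.

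By list, the median r with the hemoglobin in root was 0.785 for the 3 nitrate reduction genes, 0.728 for 9 genes of ammonium assimilation, 0.716 for 10 of nitrate uptake and 0.622 for 8 of reductant supply. It was 0.236 for 8 genes of nitric oxide and redox turnover, 0.215 for 18 signalling regulators, 0.21 for 5 NPF carriers and -0.234 for 27 low-oxygen genes, against -0.008 for all genes.

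The list of nitric oxide and redox turnover holds monodehydroascorbate reductases, nitrosoglutathione reductase, alternative oxidases and an assembled locus described as a putative nitric oxide synthase. In root an unadjusted p below 0.05 was found for 6166 of all 21895 genes at 100% against 0% and for 3295 at 40% against 0%. None of the 11 tested genes of the list was called by edgeR at 100% against 0%, 2 had such a p, and DESeq2 called 1. At 40% against 0% edgeR called 0, with 1 at an unadjusted p below 0.05 and 0 by DESeq2. At 100% against 40% edgeR and DESeq2 each called 1 of the 11 higher. That is 9.09%, next to 2.4% of all genes called higher by edgeR, and the edgeR call was lost in 5 of the 6 fits with a library left out. Cytosolic monodehydroascorbate reductase 4 D1007_56120, the most abundant, was at 308 ± 16.7, 363 ± 42.6 and 348 ± 27.6 CPM over the 3 rates. In leaf 5 of the 11 were higher and 0 lower at 100% against 0%, where 13% of all genes were called higher. The count was 3 with any 1 of the 0% leaves, 100% leaf 2 or 100% leaf 3 left out, and 5 without 100% leaf 1, while DESeq2 called 6. D1007_56120 was among them, with 19.7, 20.1 and 37.5 CPM at 0% and 212, 90.2 and 28.3 at 100%, groups that overlapped. Its log2 change was 2.36 ± 0.60 (edgeR adjusted p = 0.0214), and the call was lost without 0% leaf 1 (0.077), 0% leaf 2 (0.0615) or 100% leaf 1 (0.056).

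Of 34 tested low-oxygen genes in root, 2 rose and 3 fell at 100% against 0%, a share of 14.7% next to 10.2% of all genes. DESeq2 called 4 higher and 3 lower, and edgeR called 1 gene with any single 0% root left out, 3 without 100% root 1 or 2 and 2 without 100% root 3. At 100% against 40% edgeR called 2 higher and 5 lower, 20.6% next to 4.59% of all genes. That count of 7 was 3 without 40% root 1 or 100% root 2 and 2 without 100% root 3. Both that rose at 100% against 0% are loci of sucrose synthase 7, an enzyme that cleaves sucrose. They were D1007_61697 (1.37 ± 0.33, edgeR adjusted p = 0.0322) and D1007_08241 (1.83 ± 0.47, edgeR adjusted p = 0.0377). Among the 3 that fell at 100% against 0% was the hypoxia-induced protein D1007_34318 (-1.66 ± 0.30, edgeR adjusted p = 0.0115). The others were the ethylene-responsive factor RAP2-3 D1007_13913 (-2.30 ± 0.56, edgeR adjusted p = 0.0324) and an assembled locus of lactate dehydrogenase A (-1.14 ± 0.29, edgeR adjusted p = 0.0393). D1007_34318 was called in each of the 6 fits with a library left out, and the other 4 calls were each lost in 5 of them, with adjusted p up to 0.138 for D1007_08241. At 40% against 0% the fermentation enzyme alcohol dehydrogenase 3, at a locus assembled from the reads, was the 1 gene of the list that edgeR called (2.94%, next to 0.306% of all genes), at 32.3, 39.6 and 37.0 CPM against 70.0, 71.6 and 79.1. Its log2 change was 0.99 ± 0.17 (edgeR adjusted p = 0.0477), and of the 6 fits with a library left out only the one without 40% root 1 kept the call, with an adjusted p of 0.243 without 0% root 2. At an unadjusted p below 0.05, 11 of the 34 were higher and 1 lower at 40%, and DESeq2 called 4 higher and 1 lower. Of all 21895 genes, 3295 had such a p in that comparison, and DESeq2 called 1155. In leaf 29 low-oxygen genes were tested. At 100% against 0% edgeR called 2 higher and 8 lower, next to 13 and 9.98% of all genes. The count of calls ran from 7 to 12 with 1 library left out. At 100% against 40% edgeR called 1 higher and 6 lower, next to 11.1 and 7.52%, and 4 to 7 in all with 1 left out.

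In leaf, 9 of 46 tested nitrate genes were higher and 5 lower at 100% against 0%, next to 13 and 9.98% of all genes. Nitrite reductase D1007_08673 was among the higher ones, with 179, 120 and 160 CPM at 0% and 465, 521 and 1160 at 100% (2.48 ± 0.39, edgeR adjusted p = 0.00281). At 40% against 0% edgeR called 0 of the 46, 13 had an unadjusted p below 0.05, DESeq2 called 6, and edgeR called 8 without 0% leaf 2. Of all 20032 genes, 3635 had such a p in that comparison, DESeq2 called 1585, and edgeR called 1035 without 0% leaf 2. At 100% against 40%, 11 were higher and 4 lower, next to 11.1 and 7.52% of all genes, and these 15 calls were 6 without 40% leaf 1, 7 without 40% leaf 2 and 10 without 40% leaf 3. Tested on all 18 libraries, the response of root differed from that of leaf in 15.9% of genes for 100% against 0% and in 1.9% for 40% against 0%.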

How the data were processed

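RNA of leaf and root was extracted with TRIzol and made into libraries with the NEBNext Ultra kit, per the labels' protocols. Of tools, the submitters' processing notes list featureCounts 1.5.0-p3, HISAT2 2.0.5, DESeq2 1.20.0, CASAVA 1.8 and fastp, and of builds only mouse ones, although all loci lie on barley scaffolds. The strand setting is not given in the sources used. The raw counts per locus were used as deposited by the authors. The other values of the table, such as gene length in bases, are per the file headers, and length was used for CPM per kilobase only.

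The hemoglobin, the lists and the rules were chosen with earlier results of these data known. Lists were matched on protein names. Some patterns were corrected after the names were seen and before list values were used. Named genes were both globin loci, up to 6 called members per list by smallest adjusted p in the root comparisons with 0%, the most abundant member per list, the genes of most and least like pattern, and the scaffold neighbours. HHO6, glutamine synthetase D1007_39205, alanine aminotransferase 2, asparagine synthetase 1 and monodehydroascorbate reductase 5 were named after their values were seen. The further loci of NPF6.3, NPF7.3 and NRT2.1 that were not called were also named outside the rule.

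The tests used the quasi-likelihood method of edgeR 4.0.16 under R 4.3.3 (TMM, filterByExpr with minimum count 10 and total 15, Benjamini-Hochberg adjustment of 2-sided p over every gene tested, threshold 0.05). The 9 libraries of an organ were fitted together (21895 genes in root, 20032 in leaf, 6 residual degrees of freedom). All 18 libraries (24046 genes) served for differences between organs. The script was tested on simulated counts. Correlations used log2 CPM with a prior count of 2. Alternatives were RLE factors, library size alone, no filter, at least 5 CPM in 3 libraries, a replicate block, DESeq2 1.42.0, the 6 libraries compared, all 18 in 1 fit, and each library left out. Intervals and floors cover counting error only.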

Additional observations from a re-analysis of the deposited data

Results flagged for a closer look

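For 10 list genes named here, 6 of them from the nitrate lists, the response to organic nitrogen differed between root and leaf by a test of the difference itself (edgeR on all 18 libraries, adjusted over 24046 genes). Of all genes tested, 15.9% were called for 100% against 0% and 1.9% for 40% against 0%. Most of the 10 were named for a small adjusted p in the root comparisons with 0%, and this difference reuses those root libraries. Their number is therefore not comparable with these shares. Values are the log2 response of root minus that of leaf. For 100% against 0% it was 1.85 ± 0.52 for NAR2.1 D1007_31256 (adjusted p = 0.0246), with 1.92 in root and 0.03 in leaf. It was 2.89 ± 0.53 for NPF6.3 D1007_25456 (adjusted p = 0.00255), with 2.63 in root and -0.31 in leaf. It was 1.88 ± 0.56 for 6-phosphogluconate dehydrogenase 2 D1007_53899 (adjusted p = 0.0341), with 1.73 in root and -0.19 in leaf.

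Glutamine synthetase D1007_38808, the most abundant gene of ammonium assimilation in root, differed by 2.49 ± 0.56 at 100% (adjusted p = 0.0079) and by 2.28 ± 0.55 at 40% (adjusted p = 0.0478). In leaf it held 2280, 639 and 1890 CPM at 0% and 192 to 410 CPM at 100%. NPF6.4 D1007_17999 differed by 1.69 ± 0.39 at 40% (adjusted p = 0.0422). NPF7.3 D1007_00549 differed by -8.17 ± 1.43 at 100% (adjusted p = 0.00203). That fitted value depends on the prior count, since the 0% leaves held 1 count in all. The 100% leaves held 816, a ratio of 858 with an exact interval of 153 to 33900. The hemoglobin was not tested in this way.

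Among the redox and low-oxygen genes the difference for 100% against 0% was -2.27 ± 0.66 for monodehydroascorbate reductase 4 D1007_56120 (adjusted p = 0.029) and 2.98 ± 0.98 for sucrose synthase 7 D1007_61697 (adjusted p = 0.0493). It was -2.02 ± 0.53 for the assembled lactate dehydrogenase A locus (adjusted p = 0.0184) and 1.92 ± 0.58 for sucrose synthase 1 D1007_25299 (adjusted p = 0.034). Sucrose synthase 1 held 1140 ± 350 and 1200 ± 501 CPM in root and 490 ± 154 and 106 ± 51.8 CPM in leaf at 0 and 100% (SD, n = 3 each).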

How the results depend on the processing

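In root the log2 changes of D1007_04718 kept their direction in each of the 14 alternatives per comparison, at -3.41 to -1.54 for 40% against 0%, 3.50 to 4.75 for 100% against 0% and 5.71 to 7.33 for 100% against 40%. In leaf, with 1 library left out, they ran from -0.97 to 1.82 for 40% against 0% and from 0.35 to 3.01 for 100% against 40%. The values -0.97 and 3.01 are those without 40% leaf 3.

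Counts of calls moved more. For root 40% against 0% the 67 calls became 208 with no filter, 1155 with DESeq2, 35 with the 6 libraries compared, 1 with all 18 libraries and 0 to 151 with 1 library left out. For root 100% against 0% the 2240 became 3834 with DESeq2, 501 with all 18 and 571 to 2086 with 1 left out. For root 100% against 40% the 1005 became 2369, 237 with 6 libraries, 183 with all 18 and 209 to 872. For leaf 40% against 0% the 2 became 6 with no filter, 1585 with DESeq2, 13 with 6 libraries, 1518 with all 18 and 0 to 1035. For leaf 100% against 0% the 4597 became 7396 with all 18 and 2388 to 4353. For leaf 100% against 40% the 3730 became 5697 with DESeq2, 6700 with all 18 and 1501 to 3489. The causes were not tested.

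Nitrate genes called in root at 40% were 0, and 1 by library size, 2 with no filter, 5 with DESeq2, 1 with 6 libraries and 0 to 1 with 1 left out. At 100% against 0% the 16 ran from 5 to 19 with 1 left out and were 20 with DESeq2. At 100% against 40% the 16 became 6 with 6 libraries, 20 with DESeq2 and 9 to 16 with 1 left out. In leaf the 0 at 40% became 6 with DESeq2, 8 with all 18 and 0 to 8 with 1 left out. With 1 left out, the 14 at 100% against 0% ran from 11 to 18 and the 15 at 100% against 40% from 6 to 14, while DESeq2 called 18 in each. A replicate block, though same-numbered libraries correlated only at -0.165 to 0.159, called 17, 1496 and 430 genes in root and 0, 3657 and 2944 in leaf in the same order, and 9 nitrate genes in root at 100% against 0%.

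Of the 6 genes most like the hemoglobin over 18 libraries, 3 remained by Spearman correlation and 3 by library size. In root 3 of 6 remained by library size, and in leaf 0 of 3 by Spearman and 1 of 3 by library size. For single named genes, 1047 values stayed on their side of the threshold, 106 lost a call and 19 gained one.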

Other observations

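Outside the rule for naming, 4 list members were picked after their values were seen, because each had the highest root correlation with D1007_04718 in its list. They were asparagine synthetase 1 D1007_37625 (r = 0.939), monodehydroascorbate reductase 5 D1007_52723 (0.879), the transcription factor HHO6 D1007_41475 (0.83) and alanine aminotransferase 2 D1007_56625 (0.778). Their log2 changes at 40% against 0% were -0.75, -0.49, -1.15 and -0.40 and at 100% against 0% 1.58, 0.90, 0.57 and 0.77. None passed the test in either comparison, the lowest edgeR adjusted p being 0.0613 for D1007_56625 at 100%. In leaf D1007_56625 correlated with the hemoglobin at 0.89.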
